A study of Homo sapiens with 6 samples.

Results

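The genes described here encode enzymes and membrane carriers that take glucose to lactate, together with enzymes of the pentose phosphate pathway. Also included are 3 genes of the pyruvate dehydrogenase step, which the figures label pyruvate entry into mitochondria. All these genes were taken as a list of 33 gene symbols. All 33 were found among the 58884 genes of the count files and were expressed highly enough to be tested among 15001 genes. HSC-4 is an established cell line derived from a squamous carcinoma of the human mouth. DAPT is an inhibitor of γ-secretase, the protease complex that releases the active intracellular part of Notch receptors. One group of 3 libraries came from HSC-4 cells given 50 µM DAPT for 24 h, and the other group of 3 libraries is labelled control. The methods of the study describe the control as DMSO vehicle, whereas the column headers of the control counts carry an unexplained "GM" and the series text names only normal growth medium. If the controls received no DMSO, an effect of the vehicle and an effect of DAPT cannot be told apart. No genotype differed between the groups, and all results come from 1 cell line. Nothing in the labels says whether the libraries of a group came from separate cultures, so p-values measure the spread between these libraries, which may be technical.

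Glycolysis splits a hexose into pyruvate through a preparatory phase that spends ATP and a payoff phase that returns ATP and NADH. Lactate dehydrogenase then reduces pyruvate to lactate, which leaves the cell through monocarboxylate carriers, and many carcinomas run this route at a high rate even when oxygen is present. The pentose phosphate pathway branches off at the first phosphorylated hexose, with an oxidative branch that yields NADPH and a non-oxidative branch that exchanges sugar carbons between ribose and glycolytic intermediates.

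The libraries held 12276313 to 16317672 counted reads, so that a count of 3 reads equalled 0.184 to 0.244 CPM, the unit used below for read counts scaled to library size. The Notch target genes *HES1*, *HES2*, *HES4*, *HEY1* and *NRARP*, used as a check of the treatment, all fell, with log2 fold changes between -2.45 and -0.77. The 10 squamous epithelium markers were all detected, although *KRT14* did not exceed 3.54 CPM in any library. In DAPT library 2 *KRT14* had 0 reads. These markers moved with the treatment too: their summed level was 6073 to 6432 CPM in the controls and 4215 to 4471 CPM with DAPT. Of the 10, 6 fell, among them *KRT5* and *KRT6A* (log2 fold changes -1.04 and -1.48), 2 rose, namely *CDH1* and *EPCAM* (0.27 each), and the part of this shift in the results below was not tested. Control library 1 stood apart on the second principal component. It also carried more transcripts of fibroblast genes: the 7 fibroblast markers summed to 566 CPM there, against 57.4 and 58.4 CPM in the other controls and 50 to 55.2 CPM in the DAPT libraries, and all 7 were highest in that library. Leukocyte and endothelial markers summed to at most 13 and 1.37 CPM in any library, and *CD3E*, *TYROBP* and *CLDN5* had no reads in any library. The main counts below are therefore also given without control library 1, a choice made after seeing the data.

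Most of the glycolytic transcripts were lower with DAPT. Of the 33 genes, 24 fell at an adjusted p under 0.05 by the edgeR quasi-likelihood test with Benjamini-Hochberg adjustment over all tested genes, where 18.0% of all tested genes fell and 17.2% rose. None of the 33 rose by this test, by DESeq2 or in the fit without control library 1. At an unadjusted p under 0.05, 1 gene, *PDHB*, was higher, as were 3335 of the 15001 tested genes. The median log2 fold change of the 33 genes was -0.31, against 0.01 for all tested genes. Changes were moderate in size: 11 genes fell by more than 1.2-fold in the test against that threshold (glmTreat), where 5.67% of all tested genes did so. Among genes that fell at an adjusted p under 0.05, the estimate passed 2-fold for 1 of the 33, *SLC2A3*, and for 266 of the 15001. No test against 2-fold was run. The confidence interval of *SLC2A3*, -1.95 to -0.74 on the log2 scale, includes falls smaller than 2-fold. Without control library 1, 23 genes fell, 12 of them by more than 1.2-fold, and the median was -0.32.

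**Figure D1:**
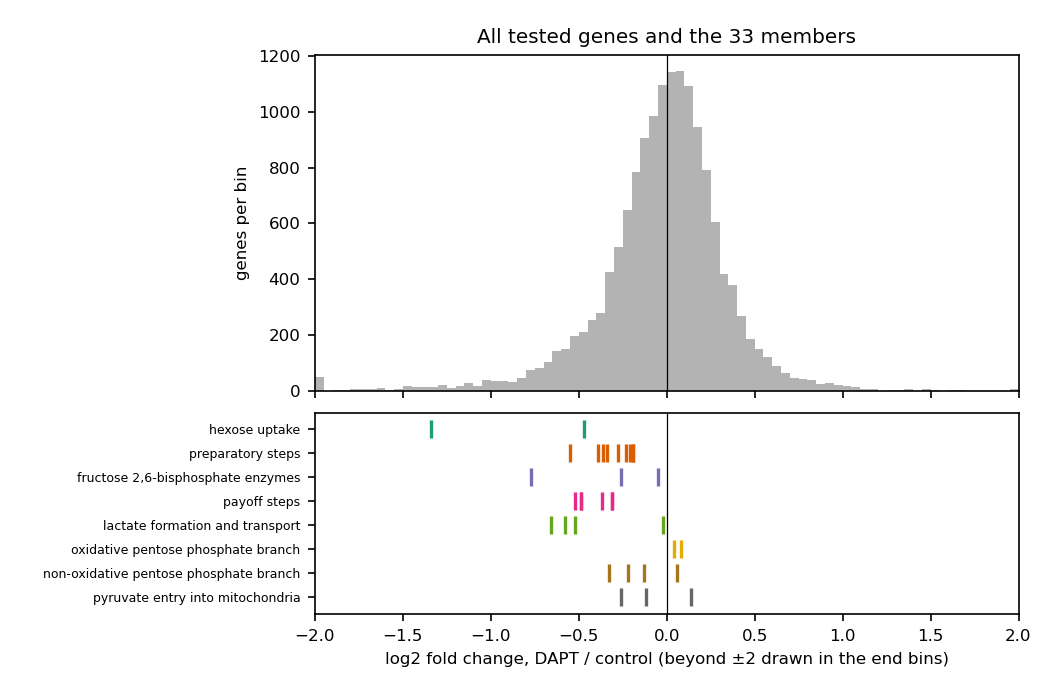
The upper panel shows the number of tested genes in each bin of log2 fold change, DAPT over control, and the lower panel marks each of the 33 genes as a tick in the row of its pathway step. The ticks for steps from uptake to lactate lie almost entirely left of zero, with a median of -0.37, while those of the oxidative pentose phosphate branch lie just right of it.

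The direction was the same library by library. In 24 of the 33 genes every DAPT library lay below every control library, a pattern that 22.7% of all tested genes showed. In 1 gene, *PDHB*, every DAPT library lay above every control library, as in 3538 of the 15001 tested genes. Summed over the 33 genes, the level was 16440, 17254 and 17028 CPM in the control libraries and 13266, 12894 and 13087 CPM in the DAPT libraries, a mean that was 22.6% lower, and the groups did not overlap. Without control library 1, every DAPT library lay below both remaining controls in 25 genes, and the summed level was 23.7% lower. Separation from fewer controls is easier to reach, and its share over all tested genes was not computed. As a share of the reads of all tested genes, by library size alone, the 33 genes held 1.66% in the controls and 1.33% with DAPT. In bulk RNA, less RNA of these genes per cell and fewer cells that express them cannot be told apart.

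**Figure D2:**
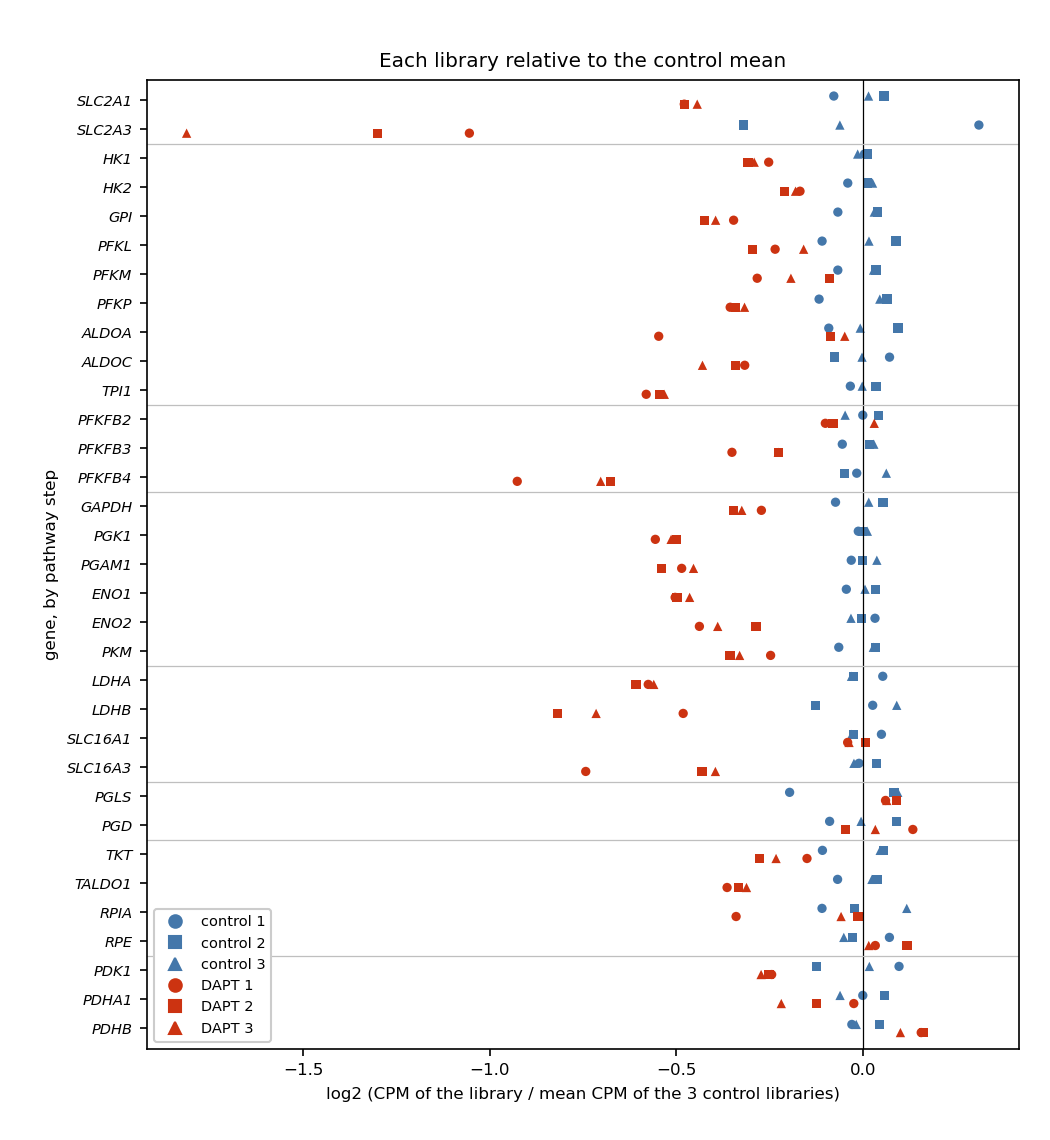
Each row is a gene and each symbol is 1 library, plotted as log2 of its CPM over the mean of the 3 control libraries, with the groups in different colours. The DAPT libraries lie left of the controls for 24 genes, among them *LDHA*, *TPI1* and *PGK1*, and mix with them for *SLC16A1*, *PGD* and *PGLS*.

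Most of the genes called lower lay between hexose uptake and lactate, the stretch that also holds most of the list. Of its 24 genes, 21 fell, where 18.0% of all tested genes fell. The summed level of the 24 was 23.5% lower with DAPT. In the pentose phosphate pathway 2 of 6 genes were lower, with a median of -0.04, and 1 of the 3 genes of the pyruvate dehydrogenase step fell. These 2 counts rest on few genes and were not tested against the share of all genes. Without control library 1 the counts were 21 of 24 and 2 of 6, and the call at the pyruvate dehydrogenase step, *PDK1*, was lost. Whether these stretches differ was not tested. The genes are described below in the order of the pathway.

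Both hexose transporters fell. *SLC2A1* encodes GLUT1, the widely expressed facilitative glucose carrier (ENSG00000117394, chr1:42925375-42959176, minus strand, GRCh38). It was at 705, 774 and 752 CPM in the control libraries and 534, 534 and 547 CPM in the DAPT libraries. These groups did not overlap, and the DAPT mean was 27.6% lower (log2 fold change -0.47, standard error 0.05, edgeR adjusted p = 1.44e-07). *SLC2A3* encodes GLUT3, a carrier of high glucose affinity best known from neurons. It was scarce, at 2.68, 1.73 and 2.07 CPM in the control libraries and 1.04, 0.877 and 0.615 CPM in the DAPT libraries. Its fall was the steepest among the 33 genes (log2 fold change -1.34, standard error 0.29, edgeR adjusted p = 0.00109) but rests on 128 reads over the 6 libraries, and its near-identical paralog *SLC2A14* makes its level uncertain. Per kilobase of exon, *SLC2A3* reached 0.356 CPM against 157 CPM for *SLC2A1* in the controls, so that nearly all transporter transcript of this pair was *SLC2A1*.

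Hexokinases, which trap glucose as its phosphate, fell modestly. *HK1* was at 319, 321 and 315 CPM in the control libraries and 267, 257 and 259.9 CPM in the DAPT libraries (log2 fold change -0.28, standard error 0.05, edgeR adjusted p = 6.15e-05). *HK2*, the isoenzyme often induced in carcinomas, was at 106, 110 and 111 CPM in the control libraries and 97, 94.2 and 96.2 CPM in the DAPT libraries (log2 fold change -0.19, standard error 0.05, edgeR adjusted p = 0.00654). Neither pair of groups overlapped, although the *HK2* mean was only 12.1% lower. *GPI*, the isomerase that turns glucose phosphate into fructose phosphate, was at 443, 477 and 474 CPM in the control libraries and 365, 346 and 353 CPM in the DAPT libraries and fell past 1.2-fold (log2 fold change -0.39, standard error 0.05, edgeR adjusted p = 2.18e-06).

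Phosphofructokinase catalyses the committed step, and its 3 subunit genes all fell. *PFKP*, the platelet-type subunit and the most abundant per kilobase here, was at 201, 228 and 225 CPM in the control libraries and 170.4, 172 and 175 CPM in the DAPT libraries (log2 fold change -0.34, standard error 0.05, edgeR adjusted p = 3.87e-05). *PFKL*, the liver-type subunit, was at 160.4, 184 and 175 CPM in the control libraries and 147, 141 and 155 CPM in the DAPT libraries (log2 fold change -0.23, standard error 0.06, edgeR adjusted p = 0.00324). *PFKM*, the muscle-type subunit, was at 61.1, 65.6 and 65.3 CPM in the control libraries and 52.6, 60.2 and 56 CPM in the DAPT libraries (log2 fold change -0.19, standard error 0.06, edgeR adjusted p = 0.0274). The *PFKM* groups were separated only narrowly, and its call was kept in 2 of the 6 fits that left out 1 library.

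Aldolase cleaves the hexose into trioses. *ALDOC* was at 76.3, 68.9 and 72.5 CPM in the control libraries and 58.3, 57.3 and 53.9 CPM in the DAPT libraries, without overlap (log2 fold change -0.36, standard error 0.06, edgeR adjusted p = 7.46e-05). *ALDOA* was at 59.8, 68 and 63.4 CPM in the control libraries and 43.6, 60 and 61.6 CPM in the DAPT libraries, where DAPT library 1 lay well below the other DAPT libraries and the groups overlapped (log2 fold change -0.21, 95% confidence interval -0.51 to 0.08, edgeR adjusted p = 0.238). The level of *ALDOA* is uncertain, because 42.3% of its exonic bases are shared on the same strand with another annotated gene, ENSG00000285043, and reads falling there were assigned to neither. *TPI1* interconverts the trioses (ENSG00000111669, chr12:6867119-6870948, plus strand). It was at 941, 987 and 962 CPM in the control libraries and 644, 660.2 and 666 CPM in the DAPT libraries, which is 31.8% lower with DAPT and the largest fall of the preparatory phase (log2 fold change -0.55, standard error 0.05, edgeR adjusted p = 5.58e-09).

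The enzymes that make and remove fructose 2,6-bisphosphate, the main activator of phosphofructokinase, did not move as a block. *PFKFB3*, whose product mostly synthesises the activator, was at 232, 244 and 246 CPM in the control libraries and 189, 206 and 206 CPM in the DAPT libraries (log2 fold change -0.26, standard error 0.05, edgeR adjusted p = 0.000361). *PFKFB4* (ENSG00000114268, chr3:48517684-48562015, minus strand) was at 17.7, 17.3 and 18.7 CPM in the control libraries and 9.42, 11.2 and 11 CPM in the DAPT libraries. This was 41.3% lower, the second steepest fall of the 33 genes (log2 fold change -0.77, standard error 0.10, edgeR adjusted p = 3.7e-06). *PFKFB2* did not pass the test (log2 fold change -0.05, 95% confidence interval -0.20 to 0.10, edgeR adjusted p = 0.625).

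All 6 genes of the payoff phase fell, also without control library 1, and their summed level was 21.9% lower. *GAPDH*, the dehydrogenase that yields NADH and a common reference gene for quantitative PCR, was at 3754, 4100 and 3993 CPM in the control libraries and 3271, 3106 and 3154 CPM in the DAPT libraries. Its mean was 19.5% lower without overlap (log2 fold change -0.31, standard error 0.05, edgeR adjusted p = 4.62e-05). *GAPDH* was also the most abundant of the 33 transcripts, at 1648 CPM per kilobase in the controls and 1326 with DAPT. *PGK1* forms the first ATP of the phase (ENSG00000102144, chrX:77910739-78129295, plus strand). It was at 930.2, 938 and 946 CPM in the control libraries and 638, 664 and 657 CPM in the DAPT libraries, which is 30.4% lower (log2 fold change -0.52, standard error 0.05, edgeR adjusted p = 1.04e-08). *PGAM1*, the phosphoglycerate mutase, was at 185, 189 and 194 CPM in the control libraries and 135, 130.1 and 138 CPM in the DAPT libraries (log2 fold change -0.49, standard error 0.05, edgeR adjusted p = 8.7e-08).

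Enolase and pyruvate kinase followed the same pattern. *ENO1* (ENSG00000074800, chr1:8861000-8879250, minus strand) was at 1160, 1225 and 1201 CPM in the control libraries and 844, 847 and 867 CPM in the DAPT libraries (log2 fold change -0.49, standard error 0.05, edgeR adjusted p = 4.05e-08). *ENO2*, the enolase best known from neurons, was at 80.1, 78.1 and 76.6 CPM in the control libraries and 57.8, 64.2 and 59.8 CPM in the DAPT libraries (log2 fold change -0.37, standard error 0.06, edgeR adjusted p = 3.29e-05). *PKM*, which encodes both muscle-type pyruvate kinase isoforms, was at 3245, 3475 and 3460 CPM in the control libraries and 2859, 2652 and 2699 CPM in the DAPT libraries (log2 fold change -0.31, standard error 0.05, edgeR adjusted p = 5.44e-05). Its isoforms PKM1 and PKM2 share a gene and cannot be separated in gene-level counts. None of these genes had overlapping groups.

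Lactate formation gave the smallest adjusted p of the list. *LDHA*, which favours the reduction of pyruvate to lactate (ENSG00000134333, chr11:18394560-18408425, plus strand), was at 2251, 2131 and 2124 CPM in the control libraries and 1456, 1423 and 1471 CPM in the DAPT libraries. It was 33.1% lower with a wide gap between the groups (log2 fold change -0.58, standard error 0.05, edgeR adjusted p = 4e-09). *LDHB* was at 21.9, 19.7 and 22.9 CPM in the control libraries and 15.4, 12.2 and 13.1 CPM in the DAPT libraries (log2 fold change -0.66, standard error 0.10, edgeR adjusted p = 2.18e-05). The *LDHB* level is uncertain, because 33.4% of its exonic bases are shared on the same strand with ENSG00000285854 and reads there were not counted.

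Of the 2 lactate carriers, 1 passed the test. *SLC16A3* encodes MCT4, the carrier associated with lactate export from glycolytic cells. It was at 42.7, 44.1 and 42.3 CPM in the control libraries and 25.7, 31.9 and 32.7 CPM in the DAPT libraries, without overlap (log2 fold change -0.52, standard error 0.08, edgeR adjusted p = 4.64e-05). *SLC16A1* encodes MCT1, which carries lactate in either direction. It was at 411, 390.2 and 389 CPM in the control libraries and 386, 399 and 387 CPM in the DAPT libraries. These groups overlapped and the interval of the difference was narrow (log2 fold change -0.02, 95% confidence interval -0.12 to 0.07, edgeR adjusted p = 0.734). On the opposite strand *SLC16A3* overlaps *CSNK1D* over 5.36% of its exonic bases, and *CSNK1D* had more reads than *SLC16A3*. The counts were made by strand. An antisense gene that shares 17.6% of the exonic bases of *GAPDH* held 0.626% as many reads as the whole of *GAPDH*. Whether reads of *CSNK1D* entered the *SLC16A3* count was not tested.

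**Figure D3:**
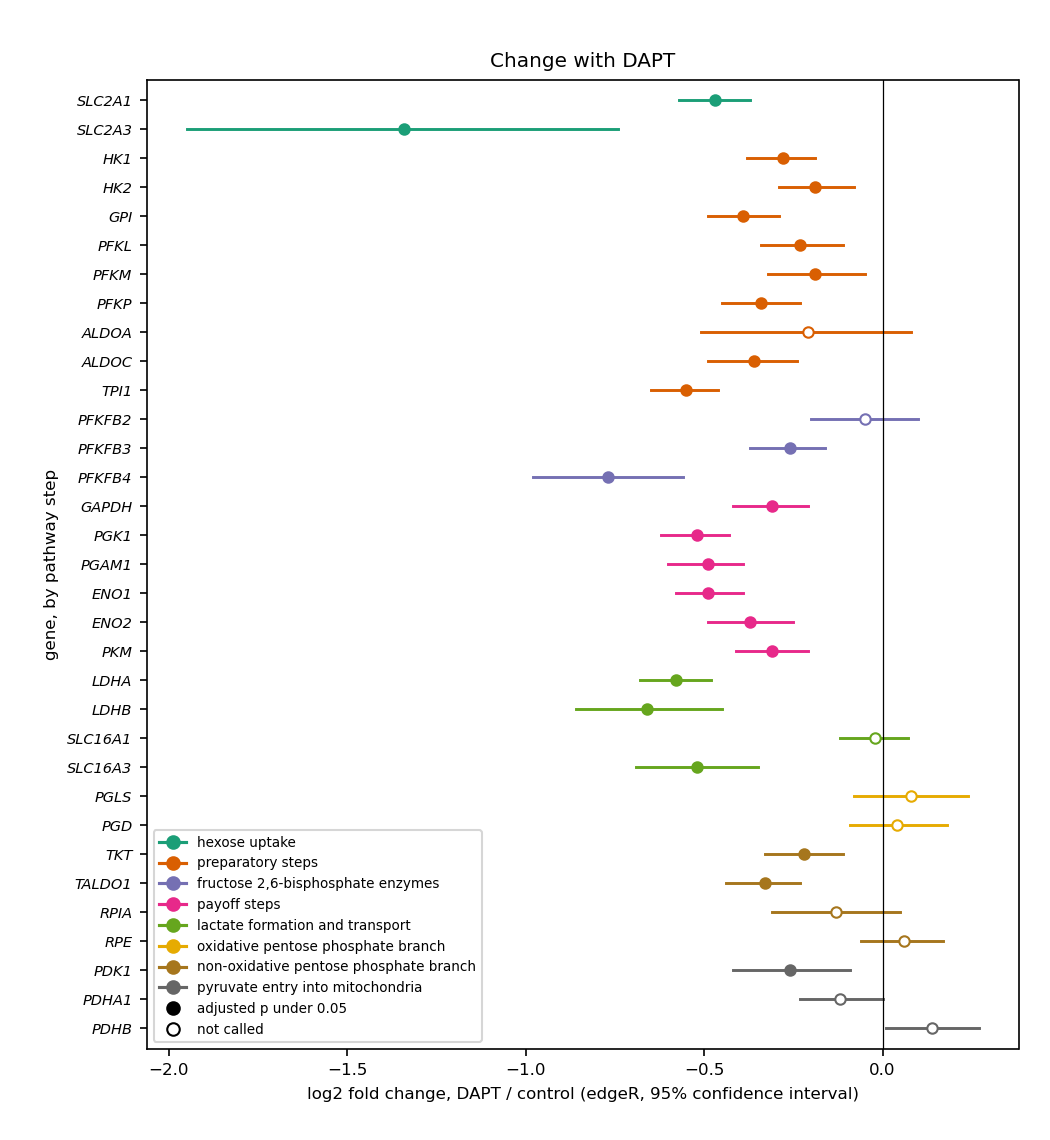
Points are log2 fold changes of the 33 genes, DAPT over control, from the edgeR fit, with 95% confidence intervals as bars and genes ordered by pathway step. From *SLC2A1* to *SLC16A3* the points lie between -1.34 and -0.02, and among the pentose phosphate genes *TALDO1* and *TKT* stand out below zero.

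In the oxidative branch neither measured gene passed the test, and none did at an unadjusted p under 0.05 or by DESeq2. *PGLS* encodes the lactonase and *PGD* the phosphogluconate dehydrogenase that releases NADPH. Their summed level was 96.2, 112 and 108 CPM in the control libraries and 113, 106 and 109 CPM in the DAPT libraries, which overlap. The fits gave log2 fold change 0.08, 95% confidence interval -0.08 to 0.24, edgeR adjusted p = 0.468 for *PGLS*. For *PGD* they gave log2 fold change 0.04, 95% confidence interval -0.09 to 0.18, edgeR adjusted p = 0.621.

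In the non-oxidative branch the 2 carbon-transferring enzymes fell. *TALDO1*, transaldolase, was at 167, 179.7 and 178 CPM in the control libraries and 136, 139 and 141 CPM in the DAPT libraries (log2 fold change -0.33, standard error 0.05, edgeR adjusted p = 2.11e-05). *TKT*, transketolase, was at 424, 475 and 472 CPM in the control libraries and 412, 377 and 389 CPM in the DAPT libraries (log2 fold change -0.22, standard error 0.05, edgeR adjusted p = 0.00277). Both groups of libraries were separate for each gene, narrowly so for *TKT*. *RPIA*, the ribose phosphate isomerase, did not pass the test (log2 fold change -0.13, 95% confidence interval -0.31 to 0.05, edgeR adjusted p = 0.273). Nor did *RPE*, the ribulose phosphate epimerase (log2 fold change 0.06, 95% confidence interval -0.06 to 0.17, edgeR adjusted p = 0.469).

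Of the genes of the pyruvate dehydrogenase step, *PDK1* encodes a kinase that inactivates the pyruvate dehydrogenase complex. It was at 26.1, 22.4 and 24.7 CPM in the control libraries and 20.6, 20.5 and 20.2 CPM in the DAPT libraries (log2 fold change -0.26, standard error 0.08, edgeR adjusted p = 0.016). This call was lost without control library 1, with an edgeR adjusted p of 0.0748, and was kept in 4 of the 6 fits that left out 1 library. *PDHA1* and *PDHB* encode the subunits of the first enzyme of the complex. *PDHB* was at 48.7, 51.3 and 49.1 CPM in the control libraries and 55.4, 55.6 and 53.3 CPM in the DAPT libraries, higher in every DAPT library than in every control but short of the threshold (log2 fold change 0.14, 95% confidence interval 0.01 to 0.27, edgeR adjusted p = 0.0833). *PDHA1* also did not pass (log2 fold change -0.12, 95% confidence interval -0.23 to -0.00, edgeR adjusted p = 0.109).

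Isoenzyme shares moved by at most a few percentage points. Shares were computed from counts per kilobase within each family, with 12 isoenzymes compared. With 3 libraries against 3, the two-sided exact permutation test cannot go below p = 0.1, and the adjusted value for that p was 0.171, so no share passed the threshold. *PFKFB4* made up 6.38% ± 0.267 (SD, n = 3) of its family in the controls and 4.52% ± 0.206 with DAPT, without overlap. *PFKP* made up 58.1% ± 0.376 of phosphofructokinase in the controls and 56% ± 0.368 with DAPT. *HK1* changed from 73.7% ± 0.548 of the hexokinase pair to 72.4% ± 0.199. *SLC16A1* made up 94% ± 0.242 of the lactate carrier pair in the controls and 95.6% ± 0.507 with DAPT. The shares within the aldolase and lactate dehydrogenase pairs are not interpretable, given the uncounted reads of *ALDOA* and *LDHB*.

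Few reads were assigned to pseudogenes of these genes. The annotation names 119 pseudogenes of 17 of the 33 genes, and their reads came to at most 1.56% of those of the parent gene, for *PGAM1* and *SLC2A3*. With these reads added to the parent genes, 24 genes fell, as before. Reads that map equally well to a gene and its pseudogene were not counted at all, so these values cannot show their weight.

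Among the neighbouring genes of the pathway both directions occurred. Of 96 related genes, 73 could be tested, with 22 lower and 9 higher, or 24 and 10 without control library 1. Over all tested genes 18.0% were lower and 17.2% higher, and the counts of the single lists below, several of which are near these shares, are to be read against them. Among other glycolytic and lactate isoenzymes, 3 of 13 fell. They were *LDHD*, a mitochondrial dehydrogenase of D-lactate (log2 fold change -0.66), *SLC16A7*, the carrier MCT2 (-0.37), and *PGM2*, a phosphopentomutase (-0.32). The calls of *LDHD* and *SLC16A7* were each kept in 2 of the 6 fits that left out 1 library, and that of *SLC16A7* was lost without control library 1. None of 4 tested further hexose transporters passed the edgeR test or DESeq2, and 1 was lower at an unadjusted p under 0.05. Without control library 1, however, 2 of the 4 were lower, *SLC2A6* and *SLC2A8* (edgeR adjusted p = 0.00679 and 0.0398), which are named here after their values were seen.

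Around the pentose phosphate pathway, 3 of 6 further genes fell and 1 rose. *PRPS1* and *PRPS2*, which activate ribose phosphate for nucleotide synthesis, had log2 fold changes of -0.44 and -0.37, and *DERA*, the deoxyribose phosphate aldolase, had -0.23. *H6PD*, which generates NADPH within the endoplasmic reticulum, rose by 0.24. Around pyruvate dehydrogenase, 1 of 11 genes fell and 2 rose. The kinase gene *PDK3* fell (log2 fold change -0.25). *PDP1* and *PDPR*, which encode a catalytic and a regulatory subunit of the phosphatase, rose by 0.22 and 0.21.

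Among genes of gluconeogenesis, glycogen and hexosamine synthesis, 6 of 14 fell and 3 rose. *PCK2*, the mitochondrial phosphoenolpyruvate carboxykinase, rose (log2 fold change 0.62, standard error 0.08, edgeR adjusted p = 5.24e-06). *GFPT1*, the first enzyme of hexosamine synthesis, rose as well (log2 fold change 0.58, standard error 0.05, edgeR adjusted p = 6.85e-09). Of the glycogen phosphorylases, *PYGL* fell by 0.59 on the log2 scale and *PYGB* rose by 0.29. In the tricarboxylic acid cycle 5 of 16 genes fell, against 3 by DESeq2 and 7 without control library 1. Of the 5, *FH*, fumarase, fell the most (log2 fold change -0.38).

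The largest called changes among the related genes were found in the list of regulators of glucose use. *TXNIP*, an arrestin-like protein that restrains glucose uptake and is induced by glucose phosphates, was at 479.7, 479 and 450.4 CPM in the control libraries and 935, 1032 and 993 CPM in the DAPT libraries. It rose, with every DAPT library far above every control library (log2 fold change 1.07, standard error 0.05, edgeR adjusted p = 3.95e-13). Its relative *ARRDC4* was at 37.3, 37.7 and 35.2 CPM in the control libraries and 68.5, 73 and 69.6 CPM in the DAPT libraries (log2 fold change 0.94, standard error 0.06, edgeR adjusted p = 1.7e-10). *MYC*, a transcription factor known to activate many glycolytic genes, was at 67.5, 72.4 and 72.8 CPM in the control libraries and 41.9, 40.8 and 41.8 CPM in the DAPT libraries (log2 fold change -0.77, standard error 0.06, edgeR adjusted p = 2.7e-09). *MLXIPL*, which encodes the glucose-responsive factor ChREBP, was scarce and fell (log2 fold change -1.01, standard error 0.22, edgeR adjusted p = 0.00111). Named after their values were seen, *HIF1A* and *EPAS1*, which encode oxygen-regulated factors, had log2 fold changes of -0.26 and -0.24. In all, 4 of the 9 regulators fell and 2 rose. No part of these genes in the change of the 33 was tested.

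**Figure D4:**
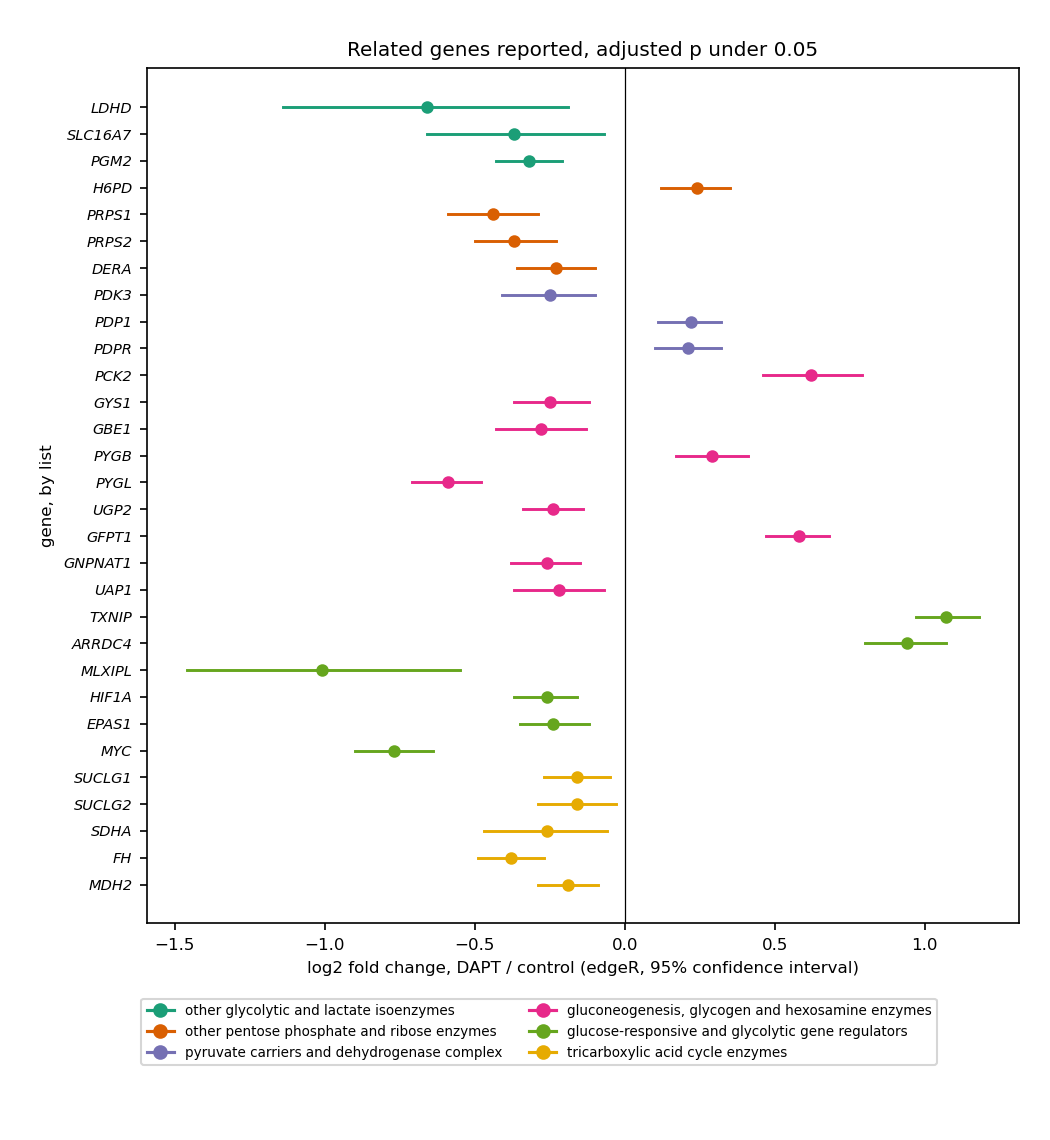
Points are log2 fold changes, DAPT over control, of the related genes reported here with an adjusted p under 0.05, with 95% confidence intervals from edgeR as bars and a colour for each list. *TXNIP* and *ARRDC4* lie farthest to the right, at 1.07 and 0.94, and *MLXIPL* and *MYC* farthest to the left, at -1.01 and -0.77.

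The promoters of these genes were read for the motif ACGTG on both strands, the core of hypoxia response elements, which is also contained in the E-box CACGTG bound by factors such as MYC and ChREBP. In RefSeq windows of 250 bases before a transcript start (GRCh38.p14), ACGTG was present in 33.9% of 56 windows of 30 genes and in 18.5% of all 35116 windows, and CACGTG in 12.5% and 6.34%. Windows of a gene can overlap, so they are not independent. By gene, 13 of 23 that fell and 3 of 7 that were not called had ACGTG in a window. A gene with more windows has more occasions for a match, and no share by gene over all genes was computed. The differences between these shares were not tested. A match of letters is a description and not a binding site. The windows with 3 or more matches are shown because they hold the motif most densely, with matches in capitals and CACGTG counted once for each strand. For *ALDOC*, 2 of the 3 matches are shown, since the last 53 bases of its window are exonic and were left out. They belong to *LDHA* (chr11:18394313-18394559, plus strand), *HK2* (chr2:74834920-74835169, plus strand), *ALDOC* (chr17:28576949-28577145, minus strand) and *PDHB* (chr3:58433858-58434082, minus strand), each read 5′ to 3′ and ending before exonic bases of the gene.
LDHA: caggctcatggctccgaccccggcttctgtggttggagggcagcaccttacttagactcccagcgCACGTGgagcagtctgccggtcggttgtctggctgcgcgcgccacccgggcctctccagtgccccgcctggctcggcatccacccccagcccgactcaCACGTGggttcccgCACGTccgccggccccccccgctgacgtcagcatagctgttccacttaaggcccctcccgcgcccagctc
HK2: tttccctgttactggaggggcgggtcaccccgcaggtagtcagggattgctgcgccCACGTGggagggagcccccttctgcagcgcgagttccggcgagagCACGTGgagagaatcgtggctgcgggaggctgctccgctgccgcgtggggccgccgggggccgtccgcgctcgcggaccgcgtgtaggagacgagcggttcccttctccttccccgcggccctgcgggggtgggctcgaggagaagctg
ALDOC: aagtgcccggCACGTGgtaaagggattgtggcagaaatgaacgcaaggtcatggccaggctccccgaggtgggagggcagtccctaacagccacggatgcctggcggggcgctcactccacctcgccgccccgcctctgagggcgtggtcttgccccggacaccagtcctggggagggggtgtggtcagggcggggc
PDHB: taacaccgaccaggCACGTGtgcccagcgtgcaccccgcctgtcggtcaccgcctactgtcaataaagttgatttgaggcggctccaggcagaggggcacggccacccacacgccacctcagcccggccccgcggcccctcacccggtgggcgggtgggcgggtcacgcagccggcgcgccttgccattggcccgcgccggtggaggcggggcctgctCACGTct
*LDHA* and *HK2* each show a pair of CACGTG sites, and both genes fell, by 0.58 and 0.19 on the log2 scale. The *HK2* window lies downstream of the gene start in the count annotation (chr2:74833981), so it precedes a later transcript start. *PDHB* holds the motif too and was not called, so motif matches occurred on both sides of the threshold.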

How the data were processed

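The authors extracted total RNA from HSC-4 cells, sequenced it, aligned the reads with HISAT2 to GRCh38 and deposited raw gene counts for each of the 6 libraries. Per the file headers, counts were made with featureCounts 1.6.3 in strand-specific mode against an Ensembl annotation, which leaves out reads that map to several places or overlap several genes. The submitters' processing notes list HTSeq in place of featureCounts. Counts were fitted here for all genes with edgeR 4.0.16 (R 4.3.3, TMM scaling, filterByExpr with a minimum count of 10, robust quasi-likelihood F test, Benjamini-Hochberg over 15001 genes), with DAPT and control as groups and no covariate. CPM values were TMM-scaled. The script was tested on simulated data. Symbols were assigned through gene identifiers to 58472 of 58884 genes. The genes described and the related lists were chosen with earlier results of these data known. Named by rule are all members, up to 4 called genes of each related list and the Notch targets. Other genes named from the related lists were chosen after their values were seen, and cell type markers serve as checks. Alternatives were DESeq2 1.42.0, other scalings and filters, a replicate block, glmTreat and leaving out each library. Promoter sequences are from RefSeq (GRCh38.p14), matched by symbol for 30 of 33 genes. *SLC2A3*, *PFKFB2* and *SLC16A1* had no window. Some genes of the related and marker lists are not reported here by name.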

Additional observations from a re-analysis of the deposited data

How the results depend on the processing

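Of the log2 fold changes of single members under all alternatives, 528 kept direction and side of the threshold, 24 no longer passed, 4 newly passed and 4 changed sign. The number of genes called was 3338 at an adjusted p under 0.01 and 1273 with glmTreat beyond 1.2-fold, which also left 11 members lower and 8 related genes called. Scaling by library size alone raised the median of all genes to 0.06 and the share of higher genes among those called from 48.7% to 61.5%. It gave a member median of -0.26, 1 member higher (*PDHB*, edgeR adjusted p = 0.0208), a summed level 20.1% lower and *SLC16A1* at 0.02. Leaving out 1 library at a time left 22 to 24 members lower and a member median between -0.32 and -0.29. It gave -0.04 to 0.00 for *SLC16A1*, -0.01 to 0.12 for *PGLS* and -0.00 to 0.09 for *PGD*, all not called. Without control library 1, the count of pyruvate dehydrogenase step genes called lower went from 1 to 0 (*PDK1*, edgeR adjusted p = 0.0748). DESeq2 called 22 members lower. With raw counts in place of counts per kilobase, the change in share turned from 0.527 to -0.184 percentage points for *PFKFB3*, and went from 1.67 to 2.64 for *SLC16A1* and from 1.33 to 1.98 for *PFKFB2*. Same-numbered libraries did not deviate together (correlations 0.0173, 0.0252 and 0.00382). The replicate block called 5295 genes and 25 members lower, among them the 24 of the unblocked fit and *ALDOA* (edgeR adjusted p = 0.0288). Depth limited *SLC2A3* most. The cause of each shift was not tested.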
